A study of Homo sapiens with 16 samples.

Results

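The E2F family and the retinoblastoma proteins were followed as 10 genes, E2F1 to E2F8, RB1 and RBL1, taken by family name, with earlier results of these data known, out of 34451 genes in the whole table. Their transcript abundance, in TPM (a share of all transcripts, corrected for transcript length), was summed by gene and described in all 16 libraries of the BJ model, a set of isogenic human fibroblast lines. The 4 stages were primary BJ cells, cells immortalized with hTERT, cells transformed by adding SV40 Large-T, and metastasizing cells that carry mutated H-Ras as well. Each stage was grown for 6 passages either at atmospheric oxygen or at 3% oxygen, with 2 libraries (a and b) per group. All stages shared the same medium, serum and temperature, each stage is a single line, and the duplicates were plates grown in parallel, so the p-values measure the spread between plates. All 10 genes reached 1 TPM in at least 1 group, and all 10 were tested in every comparison.

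E2F proteins are transcription factors that switch on or off the genes for DNA replication and cell division. In resting cells the pocket proteins, RB1 and its relatives RBL1 and RBL2, bind E2Fs and hold those genes down. Cyclin-dependent kinases phosphorylate the pocket proteins when a cell commits to divide, which frees the activating E2Fs. SV40 Large-T, present here from the transformed stage on, is known to bind all of the pocket proteins and to release E2Fs from them. E2F1, E2F2 and E2F3 are the activating members, E2F4 and E2F5 work mainly as repressors together with pocket proteins, E2F6 represses through a polycomb complex without pocket proteins, and E2F7 and E2F8 are atypical repressors that bind DNA without a DP partner.

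TPM holds no read counts, so the depth of the libraries and the counting error are unknown. The labels were checked on TERT, which was 0 in each primary library grown at atmospheric oxygen, at most 0.543 TPM in those at 3% oxygen, and between 31.6 and 193 TPM in the 12 libraries of the later stages. HRAS did not separate the metastasizing stage at atmospheric oxygen, where it was 94.6 and 78.1 TPM against 120 and 99.0 TPM in transformed cells, and it was 143 and 772 TPM in the metastasizing libraries at 3% oxygen. Those 2 libraries also stood apart from each other, since 11.0% of expressed genes differed more than 2-fold between them against 1.83% to 4.08% in the other 7 groups. For most of the members' calls and oxygen differences that rest on these 2 libraries, the values without each are given as well. The summed TPM of 12 fibroblast markers was 15811 to 22722 in the primary and immortalized libraries and 4012 to 5963 in the transformed and metastasizing ones. Epithelial markers summed to at most 3.98 TPM, and the 5 matched of 6 endothelial markers to at most 10.4 TPM, which was nearly all TEK in primary cells at 3% oxygen. Of the leukocyte markers, CD3E was at 0 in every library, PTPRC reached at most 1.32 TPM, and CD68 made up nearly all of the sum of 43.1 to 162 TPM. Fewer expressing cells and less RNA per cell cannot be told apart in bulk samples.

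Many E2F genes are themselves regarded as E2F targets, so the promoters of the members were searched for E2F sites. RefSeq promoters, from 250 bases before to 50 bases after a start, were found for 8 of the 10 members. They were searched on both strands for TTTCCCGC, TTTGGCGC, TTTCGCGC and TTTGCCGC. E2F1 and RBL1 held 2 matches each and E2F2 and E2F3 held 1 each. No match was found in these windows of E2F4, E2F6 and E2F7, nor at the second start of E2F3, 1735 bases downstream of its first. The RefSeq entry of RB1 lies 173 kb downstream of the start of the gene, so it does not show the main promoter. Of all 35116 RefSeq promoters of that length, 3.31% held at least 1 of the 4 octamers. The 120 bases around the start of the 4 promoters with a match and, for contrast, of E2F7 follow, each on the strand of its gene, with capitals marking the matched octamers on either strand. They come from the RefSeq promoter sequences of GRCh38 and were located in GRCh37 by an exact match.
E2F1 (chr20:32274172-32274291, minus strand): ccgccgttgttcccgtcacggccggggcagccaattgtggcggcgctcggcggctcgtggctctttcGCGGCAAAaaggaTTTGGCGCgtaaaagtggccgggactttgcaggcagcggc
E2F2 (chr1:23857706-23857825, minus strand): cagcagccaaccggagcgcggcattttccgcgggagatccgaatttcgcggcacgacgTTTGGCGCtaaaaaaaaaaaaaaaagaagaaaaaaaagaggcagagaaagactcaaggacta
E2F3 (chr6:20402010-20402129, plus strand): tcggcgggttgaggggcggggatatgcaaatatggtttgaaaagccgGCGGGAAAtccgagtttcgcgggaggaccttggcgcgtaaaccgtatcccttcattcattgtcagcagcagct
RBL1 (chr20:35724381-35724500, minus strand): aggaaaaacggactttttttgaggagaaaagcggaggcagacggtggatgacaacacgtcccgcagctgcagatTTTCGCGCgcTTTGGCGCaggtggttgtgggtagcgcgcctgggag
E2F7 (chr12:77459330-77459449, minus strand): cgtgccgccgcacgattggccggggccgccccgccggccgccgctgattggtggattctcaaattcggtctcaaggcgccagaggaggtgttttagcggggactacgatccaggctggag

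The matched octamers lie within 60 bases before the start in all 4 promoters. In E2F1 they run from base -33 to -26 and from -20 to -13, and in RBL1 from -26 to -19 and from -16 to -9. The match of E2F2 runs from -42 to -35 and that of E2F3 from -53 to -46. The cell cycle element TTTGAA, which 15.2% of all RefSeq promoters hold, was found only in the first promoter of E2F3, from -65 to -60. A match describes letters and does not show that a factor binds there.

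Changes were tested with limma on log2(TPM + 0.5), in a fit over all 16 libraries, and a gene was called when its adjusted p was under 0.01 and its change beyond 2-fold. With lower oxygen, 3 of the 10 genes rose in primary cells (E2F7, E2F8 and RBL1) and 2 in immortalized cells (E2F8 and RBL1), and none was called in transformed or metastasizing cells. Over all genes tested, the shares called were 4.83% of 12184 genes in primary, 4.57% of 12049 in immortalized, 6.89% of 12242 in transformed and 7.00% of 12288 in metastasizing cells. With 2 libraries per group the smallest two-sided p of an exact permutation test is 0.333, so only limma was used. Both 3% libraries lay above both atmospheric ones for 40.8%, 44.9%, 37.3% and 21.7% of all genes tested, in the order of the stages. They lay below for 26.9%, 27.9%, 35.2% and 37.0%. Of the 10 genes, 8, 8, 6 and 4 lay above and 1, 1, 1 and 2 below. A lack of overlap between libraries is thus common and is given only as a description. The median log2 fold change of the 10 genes was 0.35, 0.40, 0.34 and 0.12 in the order of the stages, beside 0.08, 0.11, 0.01 and -0.13 over all genes tested. At an unadjusted p under 0.05, 5495 of all genes passed in transformed and 5006 in metastasizing cells. By adjusted p under 0.01 alone, without the 2-fold limit, 4, 4, 4 and 0 of the 10 genes passed in the order of the stages. The share of all genes at that limit was not counted, so these counts do not set the 10 genes apart from the rest. The unadjusted limit of 0.05 was passed by 4730 of 12184 genes in the primary stage and by 4746 of 12049 in the immortalized one. When only the groups of a comparison were fitted, none of the 5 calls was made, with adjusted p from 0.0119 to 0.0306, and in primary and immortalized cells none of all genes was called either.

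**Figure D1:**
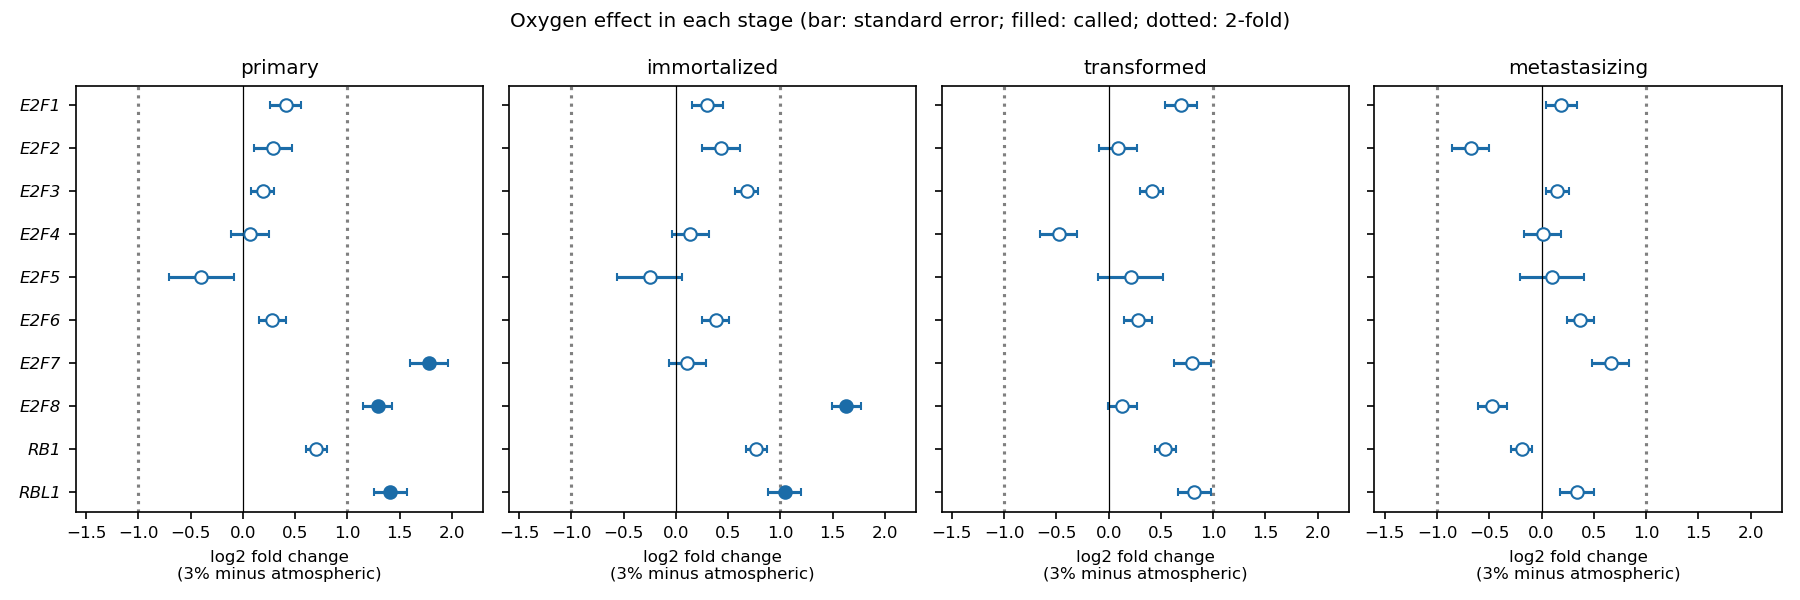
Log2 fold change between 3% and atmospheric oxygen (x axis) of each of the 10 genes (y axis) in the 4 stages, with the standard error from limma as bars. Filled points passed the test and lie beyond the dotted 2-fold line: E2F7, E2F8 and RBL1 in primary cells, and E2F8 and RBL1 in immortalized cells.

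Between stages, most calls fell on the step from immortalized to transformed cells at atmospheric oxygen. There, 5 of the 10 genes were called, E2F1, E2F2, E2F8 and RBL1 higher and E2F5 lower, where 23.4% of all genes were called. From primary to immortalized cells at atmospheric oxygen, E2F7 rose and E2F8 fell, where 11.6% of all genes were called. From transformed to metastasizing cells at atmospheric oxygen E2F5 rose, where 3.80% of all genes were called. At 3% oxygen a single change was called, the rise of E2F1 from immortalized to transformed cells, where 15.6% of all genes were called. None of the 10 was called at 3% oxygen from primary to immortalized cells (8.57% of all genes) or from transformed to metastasizing cells (5.29%), where 4938 and 4861 of all genes had an unadjusted p under 0.05. The median over all genes was itself 0.22 in the first of these steps, and median-ratio rescaling brought it to -0.01. With that rescaling E2F2 (0.82) and RBL1 (0.85) were still higher in transformed cells at atmospheric oxygen, but under 2-fold.

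**Figure D2:**
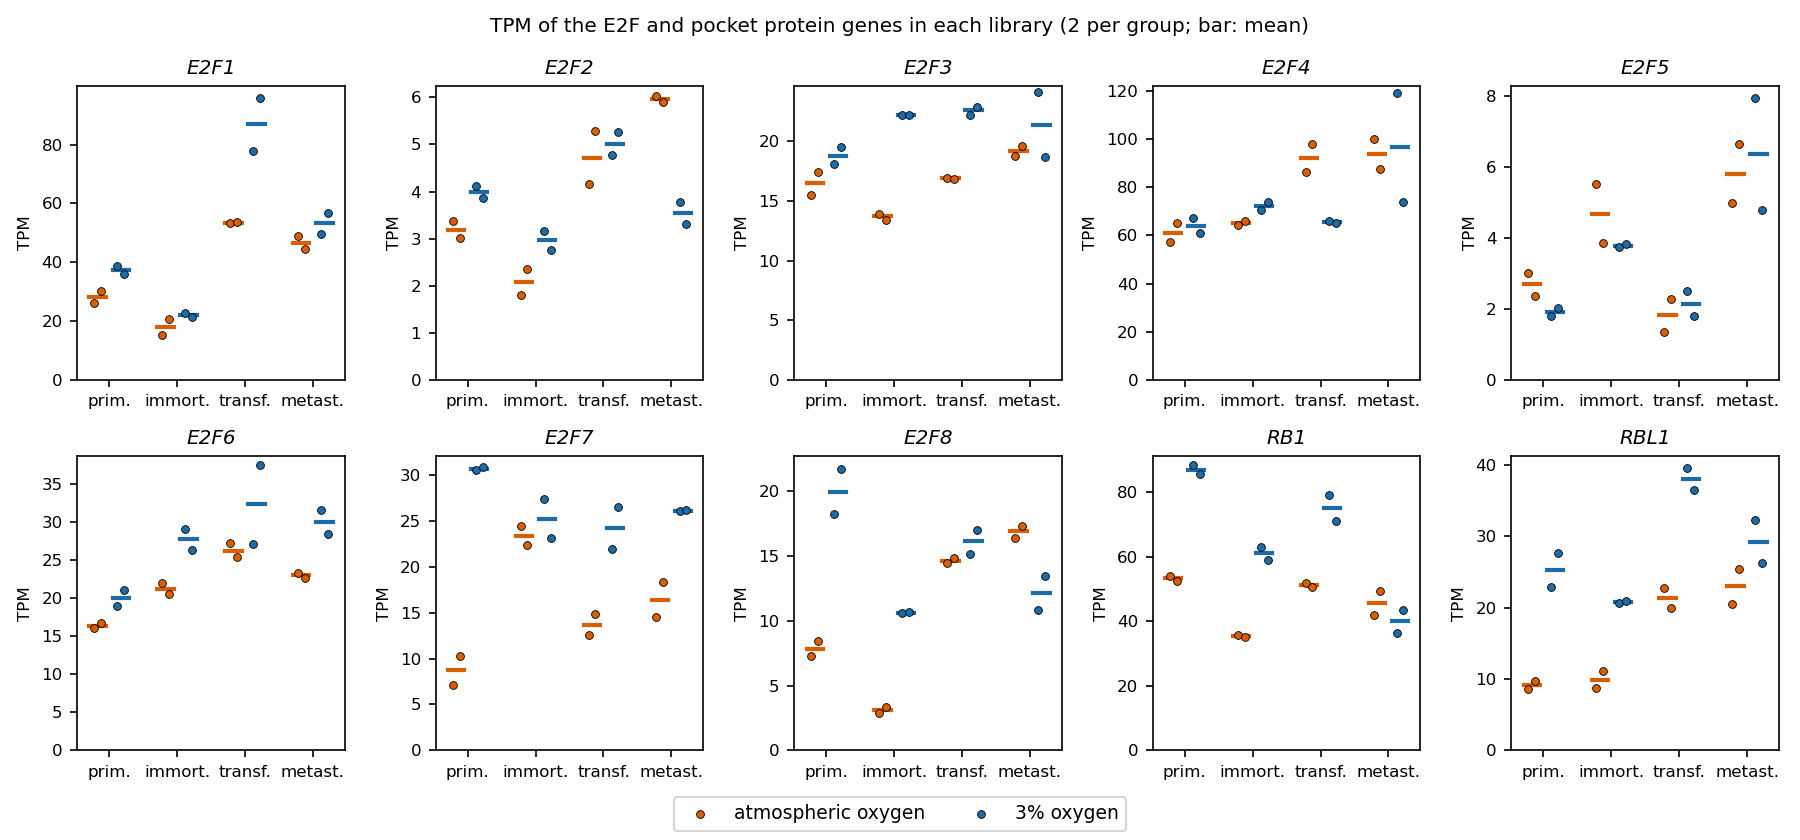
TPM of each of the 10 genes (1 panel each) in the 4 stages (x axis), at atmospheric (orange) and 3% oxygen (blue). Points are single libraries and bars the mean of 2; in proportion, E2F8 spans the widest range of group means, from 3.10 to 19.9 TPM, and E2F4 the narrowest, from 61.2 to 96.7 TPM.

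Among the activators, E2F1 on chromosome 20 (32263283 to 32274191 on the minus strand of GRCh37), is the member best known for driving entry into S phase. In primary cells it was 26.0 and 30.2 TPM at atmospheric oxygen and 38.6 and 36.1 TPM at 3% oxygen. In immortalized cells it was 15.4 and 20.8 TPM at atmospheric oxygen and 22.9 and 21.3 TPM at 3% oxygen. In transformed cells it was 53.2 and 53.6 TPM at atmospheric oxygen and 77.8 and 95.9 TPM at 3% oxygen. In metastasizing cells it was 49.0 and 44.4 TPM at atmospheric oxygen and 49.7 and 56.8 TPM at 3% oxygen. All 8 libraries with SV40 Large-T were above all 8 without it, and transformed cells at 3% oxygen stood highest. How many of all genes separate in this way was not counted, and the libraries are parallel plates of single lines. E2F1 rose from immortalized to transformed cells 2.93-fold at atmospheric oxygen (log2 fold change 1.55 ± 0.15 SE, adjusted p = 1.78e-05) and 3.84-fold at 3% oxygen (1.94 ± 0.15, adjusted p = 8.20e-06). Both calls held under every alternative run for these steps. Within transformed cells the oxygen levels did not overlap, and the difference of 0.69 ± 0.15 (adjusted p = 0.00641) stayed under 2-fold. From transformed to metastasizing cells at 3% oxygen the difference was -0.70 ± 0.15 (adjusted p = 0.00821), and it was -0.60 without metastasizing replicate a and -0.79 without replicate b. The oxygen difference in metastasizing cells was 0.19 ± 0.15, or 0.28 without replicate a at 3% oxygen and 0.09 without replicate b.

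E2F2, a close relative of E2F1 on chromosome 1, was expressed at a few TPM only. At atmospheric oxygen it was 3.37 and 3.01 TPM in primary, 1.81 and 2.35 in immortalized, 4.16 and 5.28 in transformed, and 6.03 and 5.90 in metastasizing cells. At 3% oxygen it was 4.12 and 3.87 TPM in primary, 3.17 and 2.76 in immortalized, 4.78 and 5.26 in transformed, and 3.77 and 3.32 in metastasizing cells. The immortalized libraries were lowest at atmospheric oxygen, and the metastasizing ones changed place with the oxygen level. E2F2 rose 2.03-fold from immortalized to transformed cells at atmospheric oxygen (1.02 ± 0.18, adjusted p = 9.25e-04), just past the 2-fold limit. It was under that limit without immortalized replicate a (0.87) or transformed replicate b (0.86) at atmospheric oxygen, and with a pseudocount of 1 (0.89). In metastasizing cells both 3% libraries were below both atmospheric ones, and the difference of -0.68 ± 0.18 (adjusted p = 0.0200) missed the threshold. It was -0.76 without replicate a at 3% oxygen and -0.60 without replicate b.

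E2F3, the third activator, on chromosome 6, varied least among the activators, with group means from 13.7 to 22.6 TPM. The largest oxygen difference was in immortalized cells, where it was 13.9 and 13.4 TPM at atmospheric oxygen and 22.2 TPM in each library at 3% oxygen. That difference of 0.68 ± 0.11 had an adjusted p of 0.00203 and stayed under 2-fold. The gene is read from alternative starts, and its TPM came from a pair of coding transcripts, E2F3-202 with 334 residues and E2F3-201 with 465 residues. E2F3-202 held 51.7% to 61.3% of the gene's TPM over the 8 groups, and the rest was E2F3-201. In immortalized cells E2F3-202 went from 8.28 and 8.18 TPM at atmospheric oxygen to 13.7 and 13.6 TPM at 3% oxygen, and E2F3-201 from 5.66 and 5.18 to 8.53 and 8.67 TPM. Both transcripts were thus higher at 3% oxygen in that stage, with no overlap between libraries.

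Of the repressors that work with pocket proteins, E2F4 on chromosome 16 was the most abundant E2F gene in 7 of the 8 groups. Its group means ran from 61.2 TPM in primary cells at atmospheric oxygen to 96.7 TPM in metastasizing cells at 3% oxygen, a ratio of 1.58. No change of E2F4 passed the test in the oxygen comparisons or the steps. Transformed cells held 86.4 and 97.8 TPM at atmospheric oxygen and 66.2 and 65.2 TPM at 3% oxygen, a difference of -0.48 ± 0.18 (adjusted p = 0.0647). In metastasizing cells at 3% oxygen the libraries were at 119 and 74.1 TPM, so the mean rests on values that lie far apart. The oxygen difference in that stage was 0.01 with both libraries, -0.33 without replicate a and 0.35 without replicate b.

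E2F5 on chromosome 8, the other repressor of this pair, was near the lower limit of expression. At atmospheric oxygen it was 3.02 and 2.36 TPM in primary, 5.51 and 3.84 in immortalized, 1.34 and 2.29 in transformed, and 4.97 and 6.63 in metastasizing cells. At 3% oxygen it was 1.80 and 2.01 TPM in primary, 3.73 and 3.83 in immortalized, 2.51 and 1.80 in transformed, and 7.94 and 4.78 in metastasizing cells. At both oxygen levels the transformed libraries were below the immortalized and metastasizing ones without overlap. The fall from immortalized to transformed cells at atmospheric oxygen was 2.25-fold (-1.17 ± 0.31, adjusted p = 0.00876), and the rise from transformed to metastasizing cells was 2.76-fold (1.46 ± 0.31, adjusted p = 0.00960). Both stood close to the threshold: the first was lost when any of 13 of the 16 libraries was left out and the second for 14, with adjusted p up to 0.0724 and 0.0767. The only libraries whose removal ended neither call were the metastasizing ones at 3% oxygen. At 3% oxygen the later step was 1.35 ± 0.31 (adjusted p = 0.0108), 1.01 without metastasizing replicate a, and 1.68 (adjusted p = 0.00528) without replicate b.

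E2F6 on chromosome 2, the polycomb-associated repressor, had group means from 16.4 to 32.4 TPM, and none of its changes passed the test. In each stage the mean at 3% oxygen was above that at atmospheric oxygen, by log2 fold changes of 0.28 to 0.38 with adjusted p from 0.0647 to 0.154. The difference in metastasizing cells, 0.37, was 0.30 without replicate a at 3% oxygen and 0.44 without replicate b. Only 46.8% to 61.7% of its TPM came from transcripts annotated as protein-coding. The largest single transcript was E2F6-207, which is annotated as a target of nonsense-mediated decay and held 29.8% to 45.9% of the TPM. E2F6-212 (206 residues) held 19.6% to 33.7% and E2F6-202 (281 residues) 16.0% to 26.6%. The summed level of E2F6 thus includes a large share of RNA that is not annotated as coding.

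**Figure D3:**
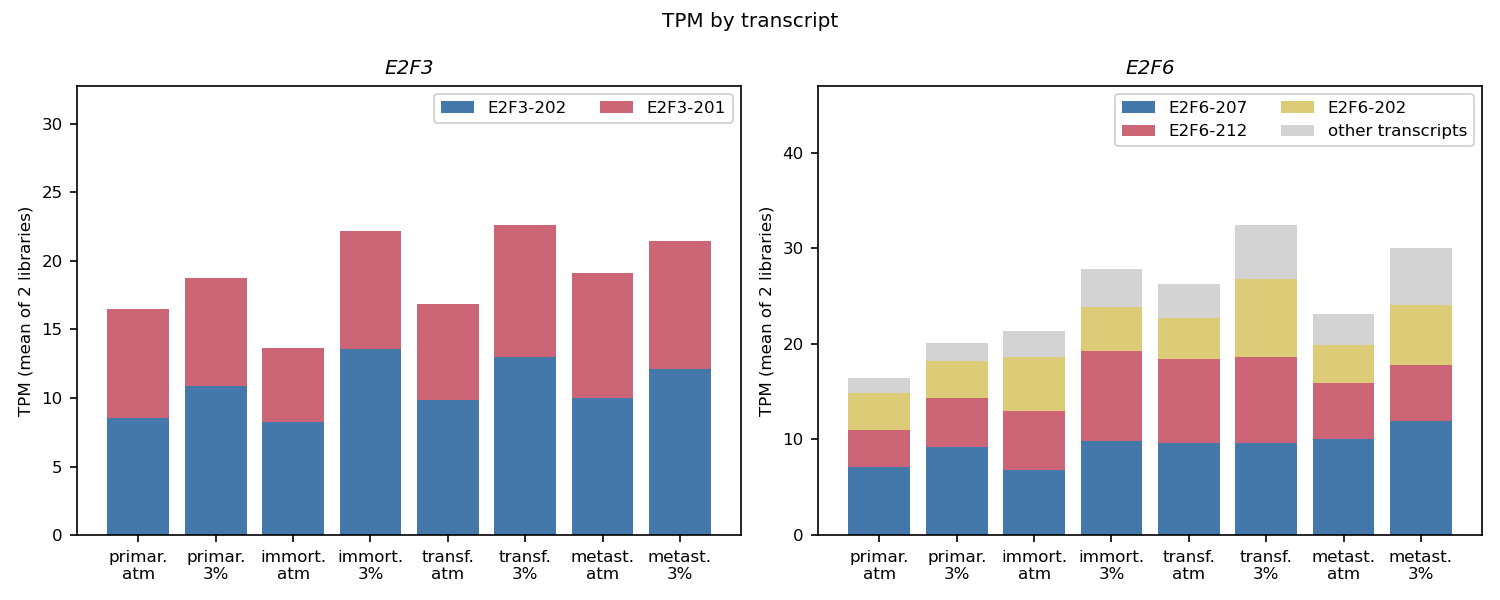
Mean TPM of 2 libraries (y axis) of the transcripts of E2F3 and E2F6 in the 8 groups (x axis), stacked. E2F3-202 and E2F3-201 make up E2F3 in shares that vary little, and E2F6-207, annotated for nonsense-mediated decay, makes up 29.8% to 45.9% of E2F6.

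Both atypical repressors rose with lower oxygen in at least 1 stage. E2F7 on chromosome 12 (77415028 to 77459349 on the minus strand of GRCh37) was 7.15 and 10.3 TPM in primary cells at atmospheric oxygen and 30.5 and 30.8 TPM at 3% oxygen. In immortalized cells it was 24.4 and 22.3 TPM at atmospheric oxygen and 27.4 and 23.1 TPM at 3% oxygen. In transformed cells it was 12.6 and 14.8 TPM at atmospheric oxygen and 21.9 and 26.5 TPM at 3% oxygen. In metastasizing cells it was 14.5 and 18.3 TPM at atmospheric oxygen and 26.1 and 26.2 TPM at 3% oxygen. At 3% oxygen the stages thus lay close together, and at atmospheric oxygen immortalized cells stood above the other stages. E2F7 rose 3.43-fold with lower oxygen in primary cells (1.78 ± 0.18, adjusted p = 1.80e-04) and rose 2.62-fold from primary to immortalized cells at atmospheric oxygen (1.39 ± 0.18, adjusted p = 2.65e-04). In immortalized cells the libraries of the oxygen levels overlapped (0.11 ± 0.18, adjusted p = 0.692). The oxygen differences in transformed (0.80 ± 0.18, adjusted p = 0.00760) and metastasizing cells (0.66 ± 0.18, adjusted p = 0.0211, and 0.67 or 0.66 without replicate a or b at 3% oxygen) stayed under 2-fold, and so did the step from immortalized to transformed cells at atmospheric oxygen (-0.75 ± 0.18, adjusted p = 0.00516).

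E2F8 on chromosome 11 (19245610 to 19263167 on the minus strand) is expressed in S phase and represses E2F1 together with E2F7. It was 7.26 and 8.43 TPM in primary cells at atmospheric oxygen and 18.2 and 21.7 TPM at 3% oxygen. In immortalized cells it was 2.89 and 3.31 TPM at atmospheric oxygen and 10.6 and 10.7 TPM at 3% oxygen. In transformed cells it was 14.4 and 14.8 TPM at atmospheric oxygen and 15.1 and 17.0 TPM at 3% oxygen. In metastasizing cells it was 16.4 and 17.3 TPM at atmospheric oxygen and 10.8 and 13.4 TPM at 3% oxygen. The 3% libraries were thus above the atmospheric ones in the 3 earlier stages and below them in the metastasizing stage. E2F8 rose with lower oxygen 2.45-fold in primary (1.29 ± 0.14, adjusted p = 2.41e-04) and 3.10-fold in immortalized cells (1.63 ± 0.14, adjusted p = 8.05e-05). The differences were 0.13 ± 0.14 (adjusted p = 0.490) in transformed and -0.47 ± 0.14 (adjusted p = 0.0292) in metastasizing cells, the latter -0.32 without metastasizing replicate a at 3% oxygen and -0.62 without replicate b. At atmospheric oxygen it fell 2.32-fold from primary to immortalized cells (-1.21 ± 0.14, adjusted p = 1.20e-04) and rose 4.20-fold to transformed cells (2.07 ± 0.14, adjusted p = 1.64e-06), the largest change of any of the 10 genes. At 3% oxygen the same steps were -0.87 ± 0.14 (adjusted p = 0.00127) and 0.57 ± 0.14 (adjusted p = 0.00736), both under 2-fold.

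**Figure D4:**
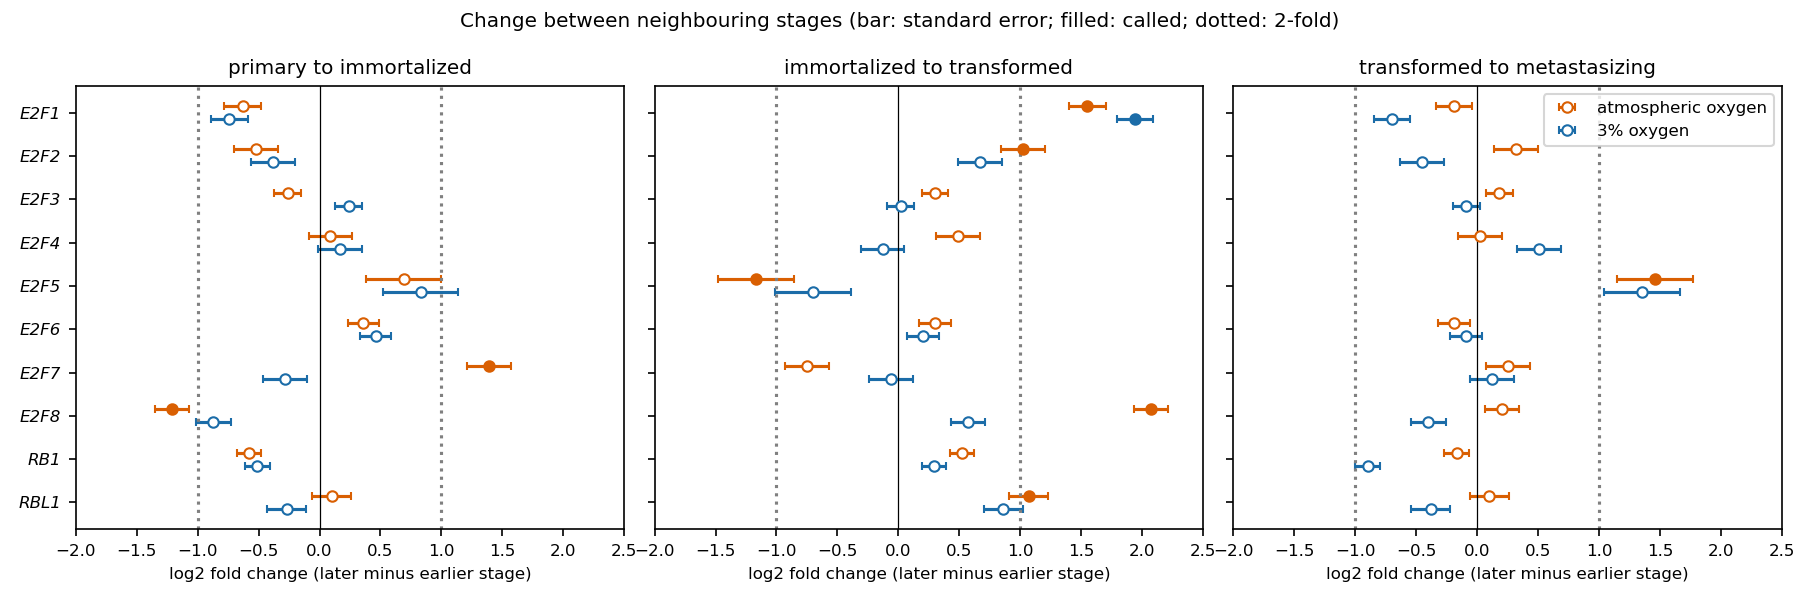
Log2 fold change from each stage to the next (x axis) of each gene (y axis) at atmospheric (orange) and 3% oxygen (blue), with the standard error from limma as bars and filled points for changes that passed the test. E2F8 has the largest change, 2.07 from immortalized to transformed cells at atmospheric oxygen, and E2F1 is the only gene with a filled point at 3% oxygen.

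Of the pocket proteins, RB1 on chromosome 13 (48877880 to 49173572 on the plus strand), the retinoblastoma tumour suppressor, was the more abundant. At atmospheric oxygen it was 54.0 and 52.5 TPM in primary, 35.9 and 35.2 in immortalized, 52.0 and 50.5 in transformed, and 42.0 and 49.5 in metastasizing cells. At 3% oxygen it was 88.4 and 85.7 TPM in primary, 63.1 and 59.0 in immortalized, 79.1 and 71.0 in transformed, and 36.4 and 43.6 in metastasizing cells. In the first 3 stages both 3% libraries were above both atmospheric ones, whereas the libraries overlapped in metastasizing cells. None of these differences reached 2-fold, and the values were 0.70 ± 0.10 (adjusted p = 0.00109) in primary, 0.77 ± 0.10 (adjusted p = 7.03e-04) in immortalized, 0.54 ± 0.10 (adjusted p = 0.00291) in transformed and -0.19 ± 0.10 (adjusted p = 0.179) in metastasizing cells. The last of these was -0.06 without metastasizing replicate a at 3% oxygen and -0.32 without replicate b. From transformed to metastasizing cells at 3% oxygen the difference was -0.90 ± 0.10 (adjusted p = 3.30e-04). It was -0.77 without metastasizing replicate a and passed 2-fold, at -1.03, without replicate b. The full-length transcript RB1-201 (928 residues) held 92.5% to 99.6% of the TPM.

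RBL1 on chromosome 20 (35624752 to 35724400 on the minus strand) encodes a pocket protein that binds E2F4 and E2F5 and is itself made mostly in dividing cells. It was 8.57 and 9.74 TPM in primary cells at atmospheric oxygen and 22.9 and 27.7 TPM at 3% oxygen. In immortalized cells it was 8.77 and 11.1 TPM at atmospheric oxygen and 20.7 and 20.9 TPM at 3% oxygen. In transformed cells it was 22.7 and 19.9 TPM at atmospheric oxygen and 39.6 and 36.5 TPM at 3% oxygen. In metastasizing cells it was 20.5 and 25.4 TPM at atmospheric oxygen and 32.2 and 26.2 TPM at 3% oxygen. The libraries of the oxygen levels did not overlap in any stage, with 3% oxygen higher in each. Of all genes tested, 40.8%, 44.9%, 37.3% and 21.7% were separated in that direction, in the order of the stages. RBL1 rose 2.67-fold with lower oxygen in primary (1.41 ± 0.16, adjusted p = 3.17e-04) and 2.05-fold in immortalized cells (1.04 ± 0.16, adjusted p = 0.00156). The latter call was lost without immortalized replicate a at atmospheric oxygen (0.88, adjusted p = 0.0155) and without replicate a (adjusted p = 0.0149) or b (adjusted p = 0.0148) at 3% oxygen. It also fell under 2-fold with median-ratio rescaling (0.90) and quantile normalization (0.97). In transformed cells the difference was 0.82 ± 0.16 (adjusted p = 0.00363) and in metastasizing cells 0.34 ± 0.16 (adjusted p = 0.136), the latter 0.19 without metastasizing replicate a and 0.49 without replicate b. From immortalized to transformed cells RBL1 rose 2.10-fold at atmospheric oxygen (1.07 ± 0.16, adjusted p = 3.10e-04), which fell under 2-fold without immortalized replicate a (0.91) or transformed replicate a (0.98). At 3% oxygen that step was 0.86 ± 0.16 (adjusted p = 0.00192). The longest transcript, RBL1-202 (1068 residues), held 61.9% to 89.5% of the TPM, and RBL1-201 (1014 residues) held 10.5% to 23.3%.

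RBL2, the remaining pocket protein, is no member of the 10 but completes the family. It was 25.2 and 27.7 TPM in transformed cells at atmospheric oxygen and 64.6 and 54.0 TPM at 3% oxygen, and 8.39 and 10.6 TPM against 17.9 and 27.7 TPM in metastasizing cells. RBL2 thus rose with lower oxygen in the transformed (1.15 ± 0.20, adjusted p = 0.00209) and metastasizing stages (1.20 ± 0.20, adjusted p = 0.00221). RBL1 and RB1 were not called there, with 0.82 and 0.54 in transformed and 0.34 and -0.19 in metastasizing cells. Whether the oxygen effect differs between these genes was not tested. The call of RBL2 in metastasizing cells was lost without replicate b at 3% oxygen (0.89) and held without replicate a (1.51). In primary (-0.31, adjusted p = 0.278) and immortalized cells (-0.07, adjusted p = 0.831) it did not pass the test. From transformed to metastasizing cells it fell at atmospheric oxygen (-1.44 ± 0.20, adjusted p = 0.00112) and at 3% oxygen (-1.39 ± 0.20, adjusted p = 0.00111, and -1.08 or -1.69 without metastasizing replicate a or b). Among the DP partners of E2Fs, TFDP1 and TFDP2 were not called in any oxygen comparison or step, and TFDP3 was at 0 in every library. The libraries of TFDP2 lay far apart in several groups, such as 171 and 21.2 TPM in immortalized cells at atmospheric oxygen. In primary cells at 3% oxygen they were 87.2 and 14.1 TPM, so its lack of calls does not show a stable level.

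Whether the oxygen effect itself changed between neighbouring stages was tested as a difference of differences. Of the 10 genes, E2F7 was called from primary to immortalized cells, where 1.72% of all genes were called. Its oxygen effect dropped by 1.67 ± 0.25 on the log2 scale (adjusted p = 0.00468), from 1.78 to 0.11. This call was lost when primary replicate a at atmospheric oxygen, either primary library at 3% oxygen or any immortalized library was left out, with values from -1.79 to -1.42 and adjusted p from 0.0128 to 0.0269. It was also lost when only the groups compared were fitted (adjusted p = 0.0151). From immortalized to transformed cells E2F8 was called, where 11.3% of all genes were called. Its oxygen effect dropped by 1.50 ± 0.19 (adjusted p = 4.87e-04), from 1.63 to 0.13, and the call held whichever library was left out. None of the 10 was called from transformed to metastasizing cells, where 7.61% of all genes were called and 4837 had an unadjusted p under 0.05. RB1 came closest, with a difference of -0.74 ± 0.14 (adjusted p = 0.00525) that stayed under 2-fold, -0.61 without metastasizing replicate a at 3% oxygen and -0.86 without replicate b.

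Genes regarded as targets of E2Fs were described in the same comparisons. Of 20 G1/S genes, which encode replication factors and nucleotide enzymes, 5 were called with lower oxygen in primary and 4 in immortalized cells, all higher, and none in transformed or metastasizing cells, where the shares of all genes were 4.83%, 4.57%, 6.89% and 7.00%. Their median log2 fold changes were 0.52, 0.87, -0.00 and -0.25 in the order of the stages, beside 0.08, 0.11, 0.01 and -0.13 over all genes. CCNA2, the S phase cyclin, rose in immortalized cells (1.03 ± 0.13, adjusted p = 6.37e-04). From immortalized to transformed cells 15 of the 20 were called higher at atmospheric oxygen (median 1.35, beside 0.22 over all genes, of which 23.4% were called) and 1 at 3% oxygen (median 0.43, beside 0.11, with 15.6% called). From primary to immortalized cells at atmospheric oxygen 2 were called lower (median -0.36, beside -0.09 over all genes, of which 11.6% were called). Of 12 G2/M genes, 1 was called with lower oxygen in primary cells and 1 in immortalized cells, both higher, with medians of 0.53 and 0.93. With all libraries fitted, none was called in the later stages. The called genes were MKI67 in primary cells and CCNB1, the mitotic cyclin, in immortalized cells. From primary to immortalized cells at atmospheric oxygen 3 of the 12 were called lower (median -0.79), and from immortalized to transformed cells 7 were called higher at atmospheric (median 1.42) and 1 at 3% oxygen (median 0.31).

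**Figure D5:**
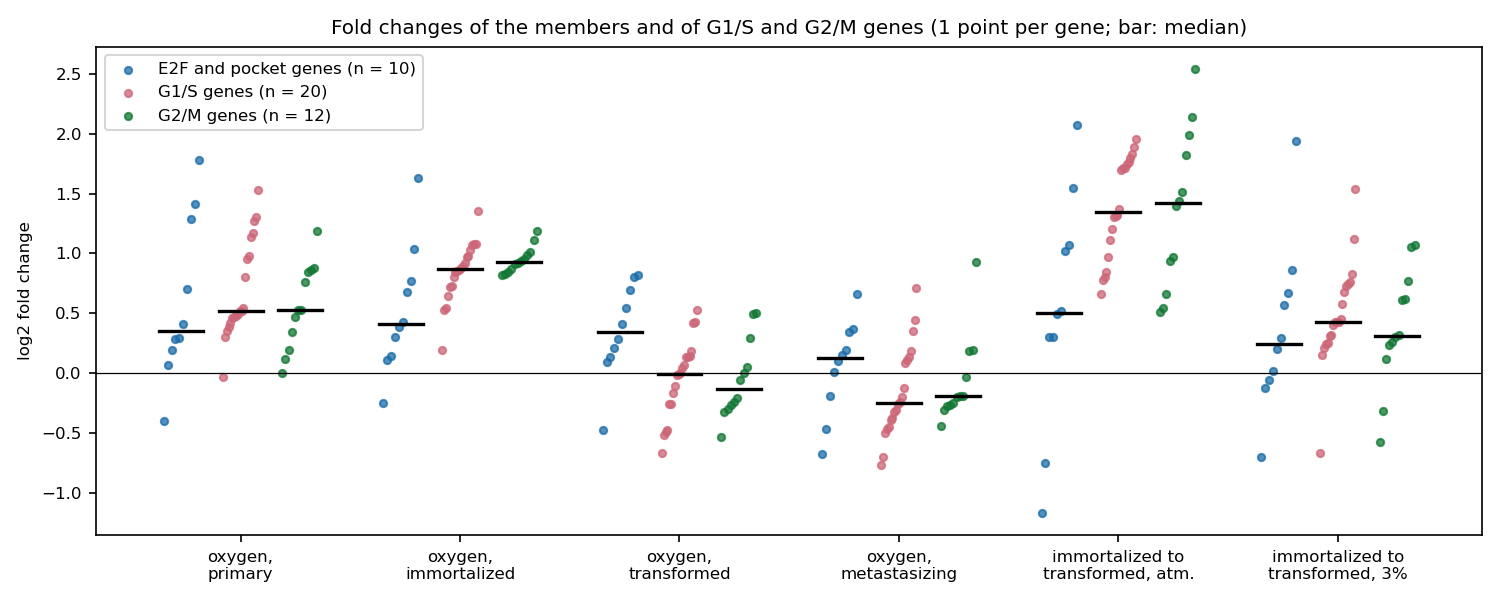
Log2 fold change (y axis) of each of the 10 genes, of 20 G1/S genes and of 12 G2/M genes in the 4 oxygen comparisons and the step from immortalized to transformed cells at both oxygen levels (x axis), with bars at the medians. The G1/S and G2/M genes lie mostly above 0 with lower oxygen in primary and immortalized cells (medians 0.52 to 0.93). They lie around 0 in transformed cells (medians -0.00 and -0.13). In metastasizing cells, where the 3% libraries lie apart, most are below 0 (medians -0.25 and -0.20, beside -0.13 over all genes).

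The other genes of the pathway were described by lists chosen for their known roles. Their counts stand beside shares of all genes called with oxygen of 4.83%, 4.57%, 6.89% and 7.00% in the order of the stages, and of 23.4% and 15.6% from immortalized to transformed cells at atmospheric and 3% oxygen. Of 7 genes of the MuvB core and its partners, which hold down or switch on E2F and mitotic genes, none was called with oxygen, and from immortalized to transformed cells 4 rose at atmospheric and 3 at 3% oxygen. MYBL2, the B-Myb activator, rose from 19.7 and 25.9 to 234 and 241 TPM at atmospheric oxygen (3.37 ± 0.14, adjusted p = 1.83e-07) and by 2.06 ± 0.14 at 3% oxygen (adjusted p = 4.45e-06), and RBBP4 rose by 1.25 ± 0.07 and 1.24 ± 0.07. None of the 9 subunits of the polycomb complex of E2F6 was called in an oxygen comparison or step. Of 8 kinases and cyclins that phosphorylate pocket proteins, 7 were tested, of which 2 rose with lower oxygen in primary, 1 in immortalized, none in transformed and 1 in metastasizing cells. CCNE1, a G1/S cyclin, went from 11.7 and 11.4 to 24.0 and 24.5 TPM with lower oxygen in primary cells (1.04 ± 0.13, adjusted p = 6.33e-04). From immortalized to transformed cells 2 of the 7 were called higher and 1 lower at atmospheric oxygen, and 1 lower at 3% oxygen. Their median log2 fold changes were 0.95 and 0.21, beside 0.22 and 0.11 over all genes. CCND1, the D-type cyclin of early G1, fell in this step by 1.42 ± 0.15 on the log2 scale at atmospheric and by 1.97 ± 0.15 at 3% oxygen. Of 7 inhibitors of these kinases, 2 were called lower with lower oxygen in primary cells, 1 higher in transformed cells and 3 lower in metastasizing cells, and none of the 4 that could be tested was called in immortalized cells. The 3 in metastasizing cells, CDKN1B, CDKN2B and CDKN2C, rest on 3% libraries that lie apart: without replicate a only CDKN2C of these was called, beside CDKN1A, and without replicate b all 3 were. Between immortalized and transformed cells, 2 of the 6 inhibitors tested were called higher and 1 lower at atmospheric oxygen. At 3% oxygen 3 of 7 were called higher in that step and 0 lower. CDKN2B was at or near 0 in the immortalized libraries (at most 0.0149 TPM) and was 5.98 to 11.9 TPM in transformed ones. CDKN1C fell with lower oxygen in primary cells (-1.90 ± 0.23, adjusted p = 4.55e-04), from 1.97 and 2.03 to 0.0958 and 0.252 TPM. It rose in transformed cells (1.47 ± 0.23, adjusted p = 0.00119), from 0.414 and 0.224 to 1.74 and 1.77 TPM. In both comparisons it lay near the lower limit of expression and was tested only because its higher group reached 1 TPM. The fibroblast markers moved with the step to transformed cells as well, with 8 of 12 called lower at atmospheric and 7 at 3% oxygen, and their part in the changes of the 10 genes was not tested.

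Over the 8 group means of log2(TPM + 0.5), the profiles of some members ran close together. Pearson's r was 0.86 between E2F2 and E2F8, 0.83 between E2F3 and RBL1 and 0.82 between E2F1 and E2F2, and the lowest was -0.73 between E2F5 and RB1. These are descriptions over 8 points that share libraries and normalization, with no test. Among 10986 other protein-coding genes of at least 5 TPM in a group, the closest to E2F8 were NCAPG2 (0.994), CASP2 and MZT1 (0.982 each), with 183 genes above 0.9. For E2F1 they were CCDC9B (0.980), ZNF670 (0.979) and SMG5 (0.978), and for E2F2 HAUS5 (0.992), DNASE1 (0.985) and OIP5 (0.976). For RBL1 they were TTLL5 (0.993), NSD2 (0.985) and SLBP (0.981), and for E2F7 S100A10 (0.991), RALA (0.952) and ST6GAL1 (0.934). For RB1 they were CIT (0.967), CEPT1 (0.961) and LAMTOR3 (0.957). For E2F4 they were MTFMT (0.969), FECH (0.967) and TACO1 (0.963), for E2F6 NPM1 (0.977), TCTN2 (0.970) and WDR54 (0.968), and for E2F5 SH3BGRL2 (0.952), CCDC6 (0.911) and HMSD (0.894). E2F5 had the fewest genes above 0.9, namely 2.

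The order of the 8 group means was resolved best for E2F1, E2F8 and RB1, in each of which only 1 of the 7 pairs of neighbouring groups had overlapping libraries. For E2F1 it was transformed cells at atmospheric and metastasizing cells at 3% oxygen, and for E2F8 metastasizing cells at atmospheric and transformed cells at 3% oxygen. For RB1 it was the metastasizing cells at their 2 oxygen levels. How many of all genes have so few overlapping pairs was not counted. E2F2 had 3 such pairs, E2F3, E2F6 and E2F7 had 4, and E2F4, E2F5 and RBL1 had 5, so much of their order lies within the spread between libraries. The highest group mean was 6.43 times the lowest for E2F8, 4.81 times for E2F1, 4.15 times for RBL1, 3.52 times for E2F7, 3.50 times for E2F5, 2.87 times for E2F2, 2.45 times for RB1, 1.97 times for E2F6, 1.65 times for E2F3 and 1.58 times for E2F4.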

How the data were processed

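RNA of 16 libraries (4 stages, 2 oxygen levels, duplicate plates) was sequenced by the authors after stranded poly(A) library preparation. The deposited values are TPM per transcript, which the authors estimated with kallisto 0.42.1 against GRCh37, and they hold no counts, so the depth per sample is unknown and no counting interval can be given. The authors' own test on estimated counts could therefore not be repeated.

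Transcripts were matched to GENCODE 44 on GRCh37 (151453 of 180253, holding 88.2% to 90.1% of each library's TPM) and summed to 34451 genes, of which 19356 were protein-coding. Protein-coding genes that averaged 1 TPM or more in a compared group were tested with limma 3.58.1 in R 4.3.3 on log2(TPM + 0.5), with an intensity trend, 8 group means over all 16 libraries (8 residual degrees of freedom) and Benjamini-Hochberg adjustment over the genes tested. A call needed an adjusted p under 0.01 and a log2 fold change beyond 1. Fold changes on this scale understate the change of low genes. The comparisons were oxygen within each stage, each stage step at each oxygen level, and the change of the oxygen effect between neighbouring stages. The model was tested on simulated data: for the oxygen comparison of primary cells, with 12087 genes tested, 149 of 200 changed genes and 3 unchanged genes were called. All planted changes were well beyond 2-fold, the unchanged genes had no effect at all, and the noise was independent and normal. The simulation therefore does not cover calls close to the 2-fold limit.

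All 10 genes are described, and from each pathway list the 2 genes called in most comparisons are candidates for naming. The lists were DP partners and RBL2, the MuvB complex, the E2F6 polycomb complex, kinases and cyclins, kinase inhibitors, G1/S and G2/M targets, and markers of fibroblasts, epithelium, leukocytes and endothelium. MKI67, CDKN1A, CDKN1B and CDKN2C were named after their values were seen, and the fits of list genes without a metastasizing library were added then. The members and lists were chosen with earlier results of these data known. Likeness was Pearson's r over the 8 group means, with the 3 closest genes named. Some genes that these rules select are not reported here. Alternatives covered the pseudocount, filter, scaling, trend, threshold, gene set, transcript set, replicate block, groups fitted and each library left out. Figures used matplotlib 3.10.9.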

Additional observations from a re-analysis of the deposited data

Results flagged for a closer look

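The change of the oxygen effect between neighbouring stages, tested as a difference of differences, had an adjusted p under 0.01 for E2F7, E2F8 and RB1. The first and second were also beyond 2-fold. E2F7 had a log2 difference between 3% and atmospheric oxygen of 1.78 in primary and 0.11 in immortalized cells, which differ by -1.67 (adjusted p = 0.00468). It was not called in 9 of 29 settings. E2F8 had one of 1.63 in immortalized and 0.13 in transformed cells, a change of -1.50 (adjusted p = 4.87e-04). RB1 had one of 0.54 in transformed and -0.19 in metastasizing cells, a change of -0.74 (adjusted p = 0.00525) that stayed under 2-fold and rests in part on the metastasizing libraries at 3% oxygen. In each case the effect was larger in the earlier stage.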

How the results depend on the processing

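None of the 16 called changes changed direction. Differences that were not called could, such as E2F4 (0.01) and E2F3 (0.15) with oxygen in metastasizing cells, at -0.33 and -0.03 without replicate a at 3% oxygen. The called changes kept their side of the threshold in 394 of 467 alternative values and lost it in 73. Fits of only the groups compared gave 0 calls over the oxygen comparisons in place of 5, 3 over the steps in place of 9 and 1 over the differences in place of 2. Quantile normalization gave 5 calls over the steps, and 4 over the oxygen comparisons. Leaving out a library gave 4 to 5, 5 to 11 and 1 to 2 calls. The 5 came without immortalized replicate a at atmospheric oxygen, and the 11 without metastasizing replicate b at 3% oxygen, which added E2F5 and RB1 in the step from transformed cells. Deviations of libraries with the same letter correlated at -0.168 to -0.0837 for oxygen and -0.184 to 0.257 for the steps. The highest were from primary to immortalized cells (0.257 at atmospheric and 0.176 at 3% oxygen). The letters were thus not free of shared deviations in every step. With the letter as a replicate block, 4 oxygen, 7 step and 1 difference calls were made, without RBL1 with oxygen in immortalized cells (adjusted p = 0.0142), the changes of E2F5 (0.0171 and 0.0226) and the difference of E2F7 (adjusted p = 0.0302), and with crossed letters, added after seeing the data, 4 oxygen calls.

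Median-ratio rescaling gave 4 oxygen and 6 step calls. It moved the median of all genes from 0.08 to -0.04 in the oxygen comparison of primary, from 0.11 to -0.03 in immortalized and from -0.13 to -0.01 in metastasizing cells, so changes near these sizes depend on the scaling. The number of all genes called ranged over the alternatives from 0 to 877 for oxygen in primary (589 as reported), 0 to 790 in immortalized (551), 5 to 1188 in transformed (844) and 6 to 1329 in metastasizing cells (860). For the steps at atmospheric oxygen it ranged from 707 to 1783 (1441), 2332 to 3282 (2901) and 8 to 705 (464), and at 3% oxygen from 525 to 1393 (1047), 1072 to 2352 (1934) and 0 to 1086 (650). For the differences it ranged from 2 to 532 (217), 652 to 2100 (1433) and 27 to 1632 (958). Fits of only the groups compared leave fewer samples to estimate the spread, and the cause of the other changes was not tested. Depth is unknown, so how far it limits genes at a few TPM, such as E2F2, E2F5 and E2F8 in immortalized cells at atmospheric oxygen, cannot be given.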
